A study of Mus musculus with 45 samples.

Results

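Nuclear genes for the mitochondrial respiratory chain were examined for Capicua (CIC) binding at their promoters in the mouse cerebellum. Genes were chosen by symbol alone from the protein-coding genes of the GENCODE annotation of GRCm38: Nduf genes for subunits, Ndufab1, Sdha to Sdhd, Uqcr genes, Cyc1, Cox4 to Cox8 genes and Atp5 genes. This gave 87 genes of 21938, that is 38 of complex I, 4 of complex II, 9 of complex III, 18 of complex IV and 18 of complex V (the ATP synthase). The 87 gene records carry 86 symbols, because Atp5o has 2 records. The symbol rule also takes in Atp5s, which is not a structural subunit, Cox7a2l, which joins complexes into supercomplexes, and Ndufa4, which is filed here by its symbol although it is now counted with complex IV. A gene was said to have a peak when the summit of a deposited CIC peak, its position of highest signal, lay within 1 kb of one of its transcript starts.

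CIC is a DNA-binding repressor that forms a complex with ATXN1, the protein whose polyglutamine tract is expanded in spinocerebellar ataxia type 1. CUT&RUN, in which an antibody tethers a nuclease that releases the DNA under its target, was applied to nuclei from the cerebellum of 15 mice with a CIC, an H3K27ac and an IgG antibody, which makes 45 samples. All mice were 10 weeks old and on a C57BL/6 background. The groups were wildtype (WT, n = 4), Atxn1 154Q/2Q with an expanded knockin allele opposite a normal one (154Q, n = 4), Atxn1 154Q[V591A;S602D]/2Q, whose expanded allele also carries both substitutions in the domain that contacts CIC (154Q[V591A;S602D], n = 3), and Engrailed1-Cre;Cic fl/fl (CIC KO, n = 4). The CIC KO label names no change in Atxn1, and its Cic deletion is driven by Engrailed1-Cre, so it reaches the cells in which that Cre was active. How much CIC remained in the control nuclei was not measured here. Libraries of the CIC antibody were merged within a genotype, and peaks were called for WT, 154Q and 154Q[V591A;S602D] against the same merged CIC KO libraries. Each genotype is therefore 1 list without replicates, no spread between animals can be given, and differences between lists were not tested. All 3 lists also share 1 control, so their values are given side by side. The 30 H3K27ac and IgG samples were not analysed here.

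The respiratory chain passes electrons from NADH and succinate to oxygen and uses the proton gradient so made to drive the ATP synthase. Complex I oxidises NADH, complex II oxidises succinate, complex III hands electrons to cytochrome c, complex IV reduces oxygen and complex V makes ATP. Some subunits are encoded by mitochondrial DNA and stand outside the present set, whereas the many nuclear ones are transcribed from separate promoters and imported. Neurons such as cerebellar Purkinje cells depend heavily on this supply of ATP.

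The sequences under the leading summits are shown first, because the results turn on where these summits lie and which letters they cover. Each is the summit base with the 50 bases on either side from the GRCm38 genome, read 5′ to 3′ on the strand of the gene, and capitals mark a match to a searched motif. The first 3 are WT summits of the leading genes by number of lists and then by significance, with Atp5d, which stands before Atp5g1 in that order, left out because its window lies in an untranslated exon. The last is the strongest 154Q summit of the set, shown after its value was seen because it is the only summit window of the set with a CIC octamer.
Uqcrq (chr11:53430974-53431074, minus strand): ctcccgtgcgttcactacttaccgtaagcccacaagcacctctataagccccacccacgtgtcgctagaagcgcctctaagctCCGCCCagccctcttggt
Ndufv1 (chr19:4012781-4012881, minus strand): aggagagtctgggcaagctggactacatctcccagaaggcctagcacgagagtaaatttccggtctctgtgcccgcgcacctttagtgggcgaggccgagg
Atp5g1 (chr11:96075791-96075891, minus strand): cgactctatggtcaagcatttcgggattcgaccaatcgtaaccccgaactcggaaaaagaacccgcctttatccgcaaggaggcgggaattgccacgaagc
Cox8a (chr19:7217783-7217883, minus strand): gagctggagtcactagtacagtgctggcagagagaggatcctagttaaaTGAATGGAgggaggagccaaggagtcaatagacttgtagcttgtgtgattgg

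CIC summits stood at 23 of the 87 respiratory chain promoters when all lists were read together, or 26.4%, beside 13.1% of all protein-coding genes, and at none of the 4 complex II genes. The WT list reached 20 of the 87 genes, or 23.0% (95% Wilson interval 15.4 to 32.9), where it reached 2577 of all 21938 protein-coding genes, or 11.7%. The 154Q list reached 11 genes, or 12.6% (7.21 to 21.2), against a background of 4.88%. The 154Q[V591A;S602D] list reached 3 genes, or 3.45% (1.18 to 9.65), against a background of 2.82%. Against all genes, the share of respiratory chain genes lay higher by 11.2 percentage points in WT and by 7.77 points in 154Q. For 154Q[V591A;S602D] the difference was 0.631 points, and the interval of the share spans the background. These intervals cover the counting of genes only. They say nothing of the spread between mice.

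The lists differ in length, and the counts move with it. On assembled chromosomes there were 5998 WT summits from 4588 peaks. For 154Q there were 2079 from 1690, and for 154Q[V591A;S602D] only 1100 from 918. When each list was cut to its 1100 most significant summits, the genes with a peak numbered 7 (WT), 4 (154Q) and 3 (154Q[V591A;S602D]). The shares were then 8.05% in WT and 4.60% in 154Q, beside 3.43% and 2.90% of all genes. A median WT summit rested on 30 fragments and a median 154Q[V591A;S602D] summit on 27, whereas the 154Q list lacks the columns from which fragments can be recovered.

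**Figure D1:**
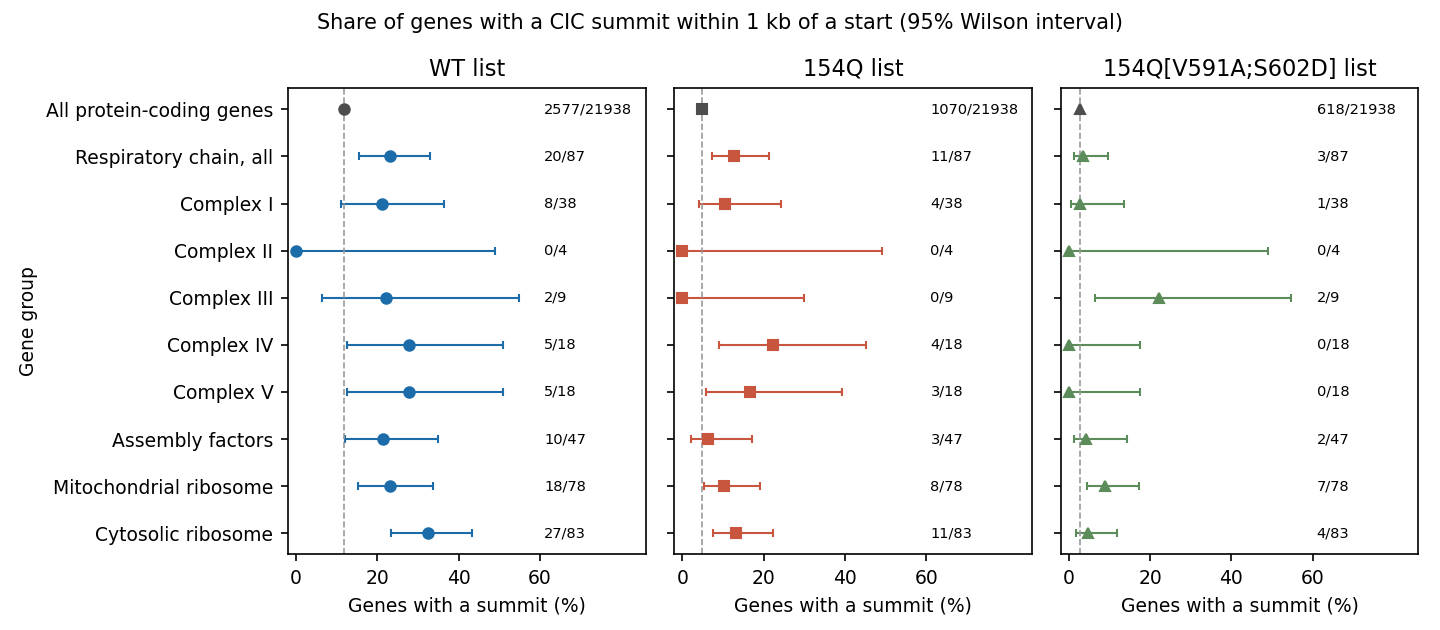
Share of genes (percent) with a CIC summit within 1 kb of a transcript start in each list, by complex and for related gene groups. Points are shares, bars are 95% Wilson intervals, the dashed line is the share of all protein-coding genes and the fractions give genes with a summit over genes in the group. In WT the respiratory chain sits at 23.0% against 11.7% for all genes, and complex II has no gene with a summit in any list.

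By complex, the WT list held 8 of 38 complex I genes, 2 of 9 complex III genes, 5 of 18 complex IV genes and 5 of 18 complex V genes. These shares ran from 21.1% to 27.8%, and their intervals overlap widely. The 154Q list, with a background of 4.88%, held 4 complex I, 4 complex IV and 3 complex V genes and none of complex III. The 154Q[V591A;S602D] list, with a background of 2.82%, held 1 complex I and 2 complex III genes and none of complexes IV and V. With 9 genes, a count of 0 in complex III allows a share of up to 29.9% by the Wilson interval, and with 4 genes the 0 of complex II allows up to 49.0%.

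Complex III held the strongest summit of the set. Uqcrq encodes a small subunit of complex III. The WT summit at position 53431024 of chromosome 11, 197 bp upstream of the start, had a −log10 q of 54.2, a measure of evidence over CIC KO that grows as q falls. It ranked 55 among the 5998 WT summits and 35 among the 2577 promoter genes. At this base the merged WT libraries piled up 127 fragments over a scaled CIC KO background of 19.3, a fold enrichment of 6.30. A further summit of the same WT peak lay 360 bp upstream with a −log10 q of 28.7.

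The 154Q[V591A;S602D] summit of Uqcrq lay 1 bp from the WT summit. Its −log10 q was 21.0, its rank 35 of 1100 and its fold enrichment 4.60, from 71 fragments over a background of 14.6. The 154Q list held no summit at Uqcrq, and its nearest summit was 405 kb away. The authors' peak caller numbers peaks in genome order, and the numbers of the 154Q peaks on either side of Uqcrq follow each other without a gap. None of the bases shown for Uqcrq is masked as repeat. Whether 154Q signal at Uqcrq fell short of the threshold by little or by much cannot be read from a list of called peaks.

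Uqcrh, the hinge protein of complex III, which aids the contact of its cytochrome c1 with cytochrome c, was the other complex III gene with a summit, and it too was in the WT and 154Q[V591A;S602D] lists. In WT the summit lay 24 bp upstream with a −log10 q of 1.79 and 26 fragments over 9.94. In 154Q[V591A;S602D] it lay 23 bp upstream with a −log10 q of 3.63 and 27 fragments over 7.54. The fragment counts are nearly equal, and the background is the smaller one in the list with the smaller q. Both summits lie 1 bp apart. The start of Lrrc41 lies 198 bp from that of Uqcrh, so this peak cannot be assigned to 1 of the 2 genes. The windows of both these summits hold an ETS core. A further 154Q[V591A;S602D] summit of Uqcrh, 160 bp upstream with a −log10 q of 1.89, has none in its window.

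In complex I, Ndufv1 was the only gene of the whole set with a summit in all 3 lists. It encodes the flavoprotein subunit that binds NADH and carries the flavin at the entry of the chain. Its summits on chromosome 19 were at 4012831 (WT), 4012834 (154Q) and 4012854 (154Q[V591A;S602D]), which is 25, 28 and 48 bp upstream of the start. The −log10 q was 23.1 (rank 248), 4.39 (rank 865) and 3.91 (rank 415) in the same order. WT had 72 fragments over 14.0 and 154Q[V591A;S602D] had 37 over 12.4, a fold enrichment of 4.85 and 2.83. Among all protein-coding genes, 386 had a summit in all 3 lists.

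Ndufv2, the iron-sulfur subunit that sits beside the flavoprotein, was in the WT and 154Q lists. Its WT summit lay 117 bp upstream with a −log10 q of 6.36, and its 154Q summits lay 283 bp upstream and 82 bp downstream with values of 1.79 and 1.41. The strongest WT and 154Q summits are 166 bp apart, the widest such gap among the genes with summits in both lists, and the WT summit falls between the 154Q ones. Both are weak in 154Q.

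A further 6 complex I genes by symbol had a summit in the WT list alone and 2 in the 154Q list alone, beside 1601 and 192 of all 21938 genes. They encode accessory subunits, which surround the catalytic core, except that Ndufa4 acts in complex IV. Ndufa5 was the strongest of them, with a −log10 q of 18.2 (rank 361) and 56 fragments over 10.5, at 116 bp upstream of the nearer of its starts. This summit lies inside an untranslated exon of Ndufa5, after the start farther from it. Ndufb10 followed with a −log10 q of 8.40 and 37 fragments over 8.77, at 27 bp upstream. The other WT values were 4.48 for Ndufa2, 3.33 for Ndufa11, 2.56 for Ndufa13 and 1.43 for Ndufa4, near the end of the list at rank 5414. In 154Q, Ndufa3 had a −log10 q of 4.97 at 167 bp upstream and Ndufb4 a value of 1.39 at 43 bp downstream.

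Several of these complex I summits stand in a promoter shared with another gene. Starts of Asb15, Ik, Vmac and both Tssk6 and Yjefn3 lie within 1 kb of those of Ndufa5, Ndufa2, Ndufa11 and Ndufa13. The Ndufa11 summit lay 691 bp upstream, inside an intron of Vmac, and the Ndufa13 summit 712 bp upstream, inside an untranslated exon of Tssk6. These were the WT summits farthest from their starts, and both are lost when the distance is set to 500 bp.

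Complex IV genes were in the WT and 154Q lists. None of the 18 was in 154Q[V591A;S602D], which allows a share of up to 17.6%, beside a background of 2.82%. Cox8a, Cox5a, Cox7a2l and Cox6a1 had summits in both lists and Cox7c in WT. Cox8a, the ubiquitous isoform of a small membrane subunit, had the highest value of all respiratory chain genes in 154Q. Its 154Q summit at 7217833 on chromosome 19, 217 bp upstream, had a −log10 q of 15.7 and ranked 190 of 2079. Its WT summit, 68 bp nearer to the start, had a −log10 q of 6.53 and ranked 1649 of 5998, with 58 fragments over 21.6. A weaker 154Q summit lay 65 bp upstream with a value of 3.92. By the transcript starts used here, Cox8a is thus the only gene of the set whose value in 154Q stood above 10. It is 1 of 3 genes in both lists whose −log10 q was higher in 154Q than in WT. In the others in both lists, Cox5a, Ndufv1, Ndufv2, Atp5d and Atp5g1, the value was lower in 154Q. The same count over all genes was not made.

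The others with a higher value in 154Q were Cox7a2l, with 3.16 in 154Q and 1.79 in WT, and Cox6a1, an isoform found in most tissues, with 2.41 and 1.76. They ranked 4758 and 5077 of the 5998 WT summits. Cox5a, a subunit on the matrix side of the enzyme, had 3.25 in 154Q and 6.39 in WT. Its peak stretched over 3 WT summits between 67 and 326 bp upstream. Cox7c, another small subunit, had a −log10 q of 9.86 in WT at 83 bp downstream of its start, inside its 5′ untranslated exon, and had the lowest background of all 20 WT genes, with 34 fragments over 6.59. The depth behind the 154Q values is unknown, so the −log10 q of 154Q and WT are given side by side and not as amounts of CIC.

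The ATP synthase held 5 genes in WT and 3 in 154Q. Atp5b, the catalytic β subunit, had the second highest WT value of the set, a −log10 q of 28.4 at 125 bp upstream (rank 167). This value rests on 296 fragments over a background of 134, the highest background of the set, and the fold enrichment was 2.20. Atp5g1, which encodes a copy of the membrane ring subunit c, was alike, with 157 fragments over 64.9, a fold enrichment of 2.40 and a −log10 q of 17.3 in WT. The CIC KO libraries are high at both starts, whereas the median background of the 20 WT genes was 11.1. The window of the strongest summit holds 18.8% masked bases at Atp5b and none at Atp5g1, whose weaker WT summit has 15.8%.

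In 154Q, Atp5g1 had a −log10 q of 4.48 at 266 bp upstream, 95 bp from the WT summit, and Atp5b had no summit. Atp5d, the δ subunit of the rotating stalk, had a −log10 q of 19.98 in WT (77 fragments over 18.1) and 2.32 in 154Q, with summits 19 bp apart at 61 and 42 bp upstream of the nearest start. Both lie in an untranslated exon of a longer transcript, and that sequence is not shown. Atp5k, a membrane subunit that helps synthases pair, was in 154Q alone at 465 bp downstream with a −log10 q of 1.501. Atp5j, the coupling factor of the outer stalk, and Atp5l, another membrane subunit, were in WT alone with 4.96 and 2.95.

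The Atp5j summit is the same as that of Gabpa, an ETS-family activator of respiratory genes. The Atp5j and Gabpa starts lie 379 bp apart and the summit lies 460 bp downstream of the nearest Atp5j start, inside introns of both genes. The window holds an ETS core and a YY1 motif. The peak cannot be assigned to 1 of these 2 genes. Of the other regulators of nuclear respiratory genes, Esrra, a nuclear receptor that drives oxidative metabolism, had −log10 q values of 87.5, 34.9 and 7.12 in the WT, 154Q and 154Q[V591A;S602D] lists, above every respiratory chain gene in the first 2 lists.

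**Figure D2:**
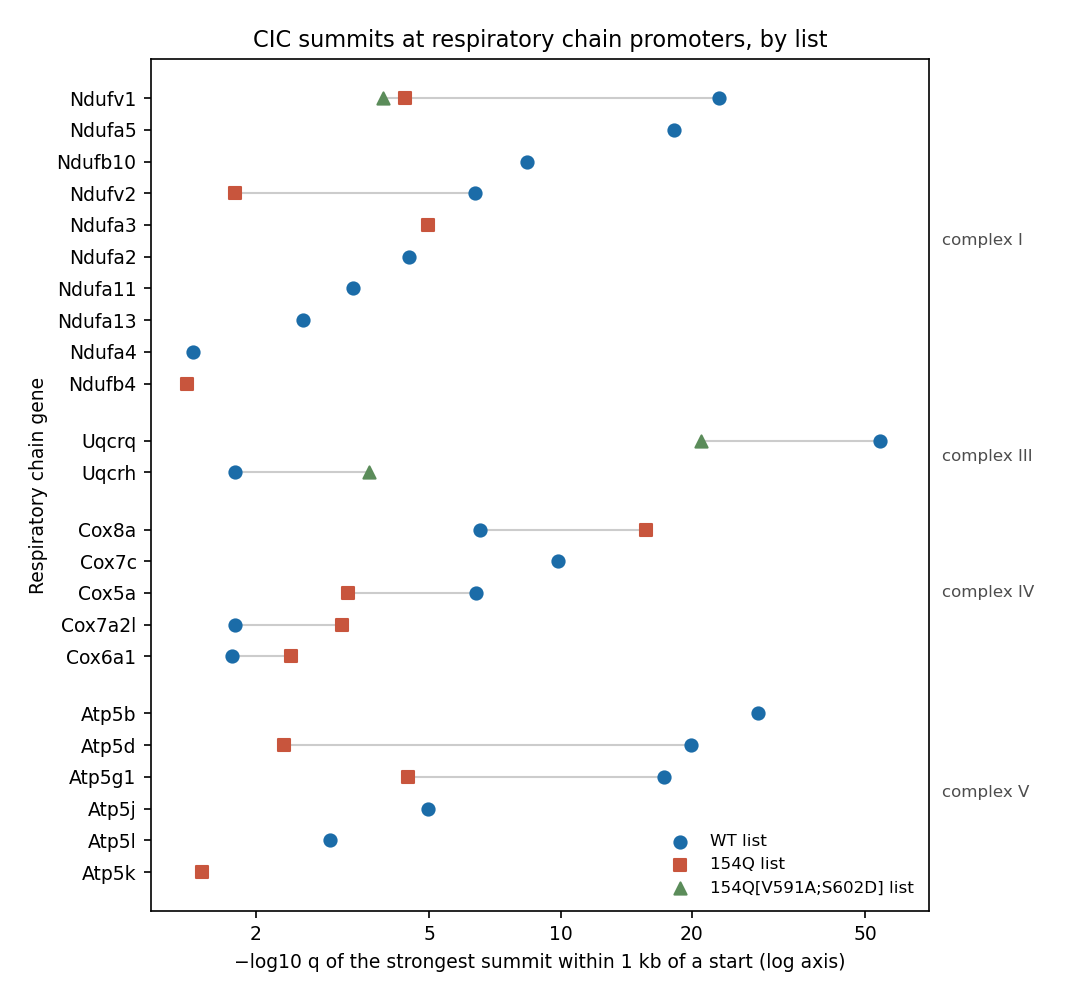
Strongest CIC summit of each respiratory chain gene with a peak, as −log10 q on a log axis, by complex and list. Circles are WT, squares 154Q and triangles 154Q[V591A;S602D], and a grey line joins the values of 1 gene. Uqcrq leads in WT at 54.2 and in 154Q[V591A;S602D] at 21.0, Cox8a leads in 154Q at 15.7, and Ndufv1 alone has all 3 symbols.

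Read per list, the values of these genes spread widely. In WT the strongest summit of the 20 genes ran from 1.43 to 54.2 with a median −log10 q of 6.38, and the 2577 promoter genes of that list had a median of 5.09. In 154Q the 11 genes ran from 1.39 to 15.7 with a median of 3.16, against 4.36 over its 1070 promoter genes. In 154Q[V591A;S602D] the 3 genes had a median of 3.91, against 3.10 over 618. At a q under 0.001 the WT list kept 14 of these genes, 154Q kept 6 and 154Q[V591A;S602D] kept 3. These are 16.1%, 6.90% and 3.45% of the 87 genes, beside 8.22%, 3.10% and 1.46% of all genes at that threshold.

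The recovered fragments show what lies behind these values. The 20 WT summits had 24 to 296 fragments with a median of 35.5, and 38 was the median over all promoter genes. Fold enrichment over CIC KO had a median of 2.70 at the respiratory chain genes and 2.97 over all promoter genes. The 6 genes with a −log10 q over 10 in WT were of different kinds. Uqcrq, Ndufa5, Ndufv1 and Atp5d had fold enrichments of 4.08 to 6.30, and Atp5b and Atp5g1 had high counts over a high background.

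**Figure D3:**
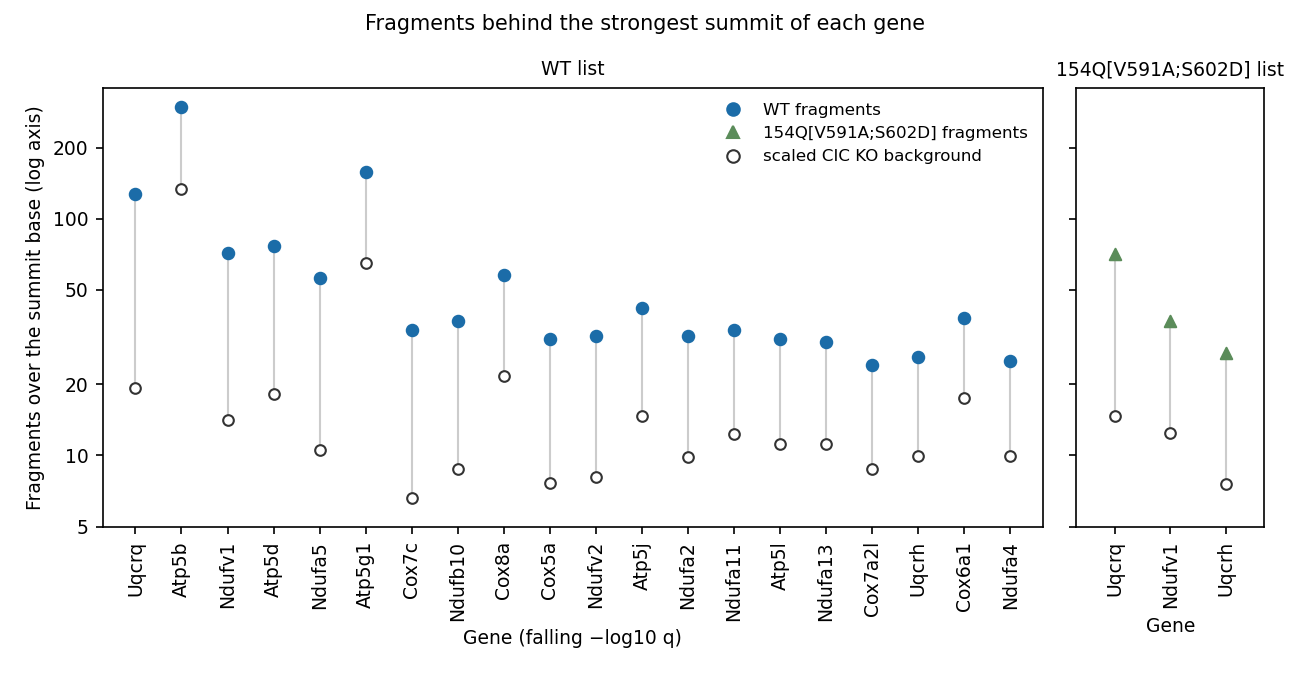
Fragments over the summit base of each gene (filled symbols) and the scaled CIC KO background there (open circles), on a log axis, for the WT and 154Q[V591A;S602D] lists, in order of falling −log10 q. Atp5b and Atp5g1 have backgrounds of 134 and 64.9, and the other WT genes have 6.59 to 21.6. The 154Q list does not hold the needed columns.

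The summits lay close to the starts and mostly before them. The strongest summit was upstream in 17 of the 20 WT genes, 9 of the 11 154Q genes and all 3 154Q[V591A;S602D] genes. Over all promoter genes of these lists it was upstream in 74.4%, 73.4% and 71.4%. Its median position was 113 bp upstream for WT, 99 bp for 154Q and 48 bp for 154Q[V591A;S602D], beside 90, 95 and 88.5 bp over all promoter genes of those lists. Within 250 bp of a start were 17 of the 20 in WT and 8 of the 11 in 154Q. Of the 25 WT summits counted singly, 20 lay upstream of the nearest annotated transcript of the gene, 3 in an untranslated exon, 1 in a coding exon (Ndufa2) and 1 in an intron (Atp5j). Of these 20, 18 lay outside the gene record and 2, both of Cox7a2l, inside it, since that record begins before the transcript start used here.

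**Figure D4:**
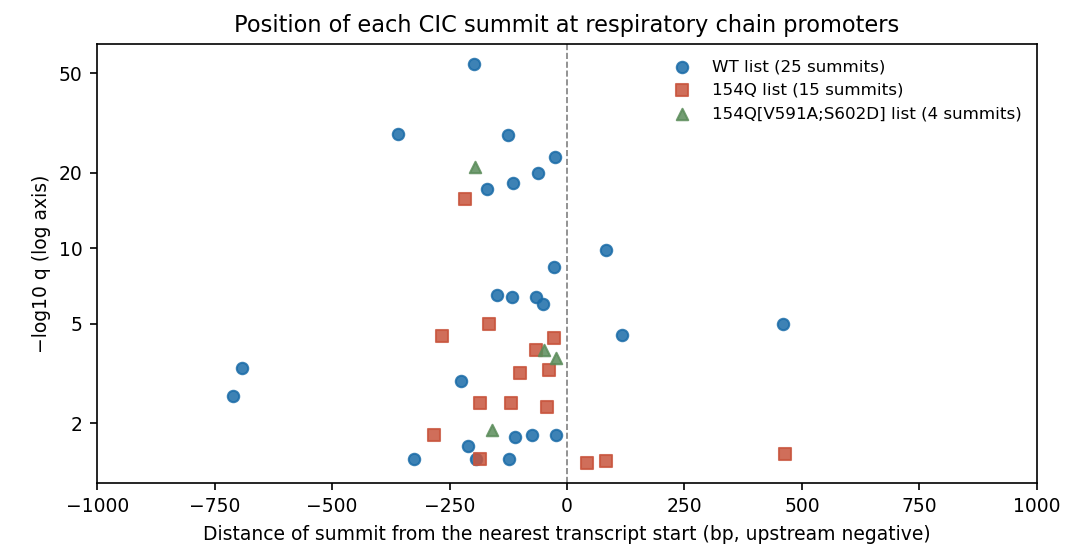
Each CIC summit at a respiratory chain promoter by its distance from the nearest transcript start (bp, upstream negative) and its −log10 q on a log axis. The 25 WT, 15 154Q and 4 154Q[V591A;S602D] summits gather just upstream of the start, and every summit with a −log10 q over 10 lies upstream.

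Among genes without a summit in a list, 2 cases had one beyond the 1 kb limit but within 5 kb. A 154Q[V591A;S602D] summit lay 2.47 kb upstream of Atp5d with a −log10 q of 3.55, and a WT summit 3.62 kb upstream of Ndufa4l2 with 1.78. The first lies 378 bp from the start of Cbarp, where WT and 154Q also had summits with values of 21.9 and 34.6. The gene record of Atp5d begins near there, so that a rule by gene record would count Atp5d in all 3 lists.

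Of the 23 respiratory chain genes with a peak in any list, WT held 20, beside 2577 of the 2880 protein-coding genes with one. For 154Q these counts were 11 of 23, beside 1070 of 2880. For 154Q[V591A;S602D] they were 3 of 23, beside 618 of 2880. Where a gene was missing from a list, the numbers of the deposited peaks on either side of it were read. Of the 12 respiratory chain genes with a summit in WT or 154Q[V591A;S602D] but not in 154Q, 9 lie between 154Q peaks with consecutive numbers, and 1 number is unused around each of Ndufa2, Ndufa5 and Atp5j. Over all genes missing from 154Q in this way, 74.3% lie between consecutive numbers. Of the 20 missing from 154Q[V591A;S602D], 17 lie between consecutive numbers, beside 82.7% over all genes. Ndufa3, Ndufb4 and Atp5k, the 3 genes of the 154Q list that are missing from WT, all lie between consecutive WT numbers, beside 91.1% over all genes.

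The remaining 64 genes had no summit in any list. They include the tissue-restricted isoforms Cox4i2, Cox6a2, Cox6b2, Cox7a1, Cox7b2, Cox8b, Cox8c and Ndufa4l2, which are known from muscle, testis, lung or hypoxic cells, at 0 of 8. None of these 8 has a CpG-rich start by the definition given with the start features, and WT summits stood at 3.01% of all genes without one. Of the 15 subunits that carry redox centres or the catalytic site, 3 had a WT summit, namely Ndufv1, Ndufv2 and Atp5b, or 20% beside 11.7% of all genes. Sdha to Sdhd, Cyc1, Uqcrfs1 and Atp5a1 had none. Of the 64 genes that are neither isoforms of this kind nor such subunits, 17 had a WT summit (26.6%, beside 11.7% of all genes), 9 a 154Q summit (14.1%, beside 4.88%) and 2 a 154Q[V591A;S602D] summit (3.13%, beside 2.82%). Atp5a1, which pairs with Atp5b in the catalytic ring, Atp5g2 and Atp5g3, which encode the same mature subunit c as Atp5g1, and Uqcrc1 and Uqcrc2, the core proteins of complex III, were among those without. The complex I genes without a summit included Ndufa1, Ndufa6, Ndufa7, Ndufa8, Ndufa9, Ndufa10, Ndufa12, Ndufab1, Ndufb2, Ndufb3, Ndufb5, Ndufb6, Ndufb7, Ndufb8, Ndufb9, Ndufb11, Ndufc1, Ndufc2, Ndufv3 and the isoform Ndufa4l2. Ndufs4, Ndufs5 and Ndufs6 had no summit either, like the Ndufs genes named above. In complexes III to V they were Uqcrb, Uqcr10, Uqcr11, Cox4i1, Cox5b, Cox6b1, Cox6c, Cox7a2, Cox7b, Atp5c1, Atp5e, Atp5f1, Atp5h, Atp5j2, Atp5mpl, both Atp5o records and Atp5s, beside those named above.

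Respiratory chain starts differ from the average start in ways the symbol rule did not use. A start was called CpG-rich when the 300 bases from 250 before to 50 after it had at least 50% GC and an observed-to-expected CpG ratio of at least 0.6. Of the 87 genes, 62 had such a start, or 71.3%, against 49.8% of all protein-coding genes. This bears on the counts, since CIC summits stood at 20.6% of CpG-rich genes in WT and at 3.01% of the rest. Among CpG-rich genes alone the WT share was 27.4% in the respiratory chain (17 of 62) and 20.6% overall. In 154Q these shares were 17.7% and 8.54%, and in 154Q[V591A;S602D] 3.23% and 4.97%, where the direction turned. The Wilson interval of the respiratory chain share in WT, 17.9% to 39.6%, spans the 20.6% overall. That in 154Q, 10.2% to 29.0%, lies above 8.54%. All 11 154Q genes had a CpG-rich start, as did 20 of the 23 genes with a peak in any list (87.0%). Over all genes with a peak, 87.1% in WT and 87.2% in 154Q had such a start, so these counts are near the background.

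Many respiratory chain genes share their promoter. A start of another protein-coding gene lay within 1 kb in 27 of 87 genes, or 31.0%, against 12.3% of all genes. Of these 27, 6 had a WT summit, 0 a 154Q summit and 1 a 154Q[V591A;S602D] summit (Uqcrh). Over all genes with a shared start the shares were 26.3%, 10.1% and 6.08%. With 27 genes, the 0 of 154Q allows a share of up to 12.5% by the Wilson interval, which holds the 10.1%. The 60 respiratory chain genes with a start of their own had shares of 23.3%, 18.3% and 3.33%, beside 9.70%, 4.15% and 2.36% of all such genes.

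The start windows were searched on both strands for motifs of known regulators. A match is a run of letters and not a shown binding site. The NRF1 motif (GCGCANGCG) was in 26.4% of respiratory chain windows and 10.3% of all windows, and the YY1 motif (AAGATGGC) in 13.8% and 4.30%. The ETS core (CCGGAAG) was in 18.4% and 13.5%, the cyclic AMP response element (TGACGTCA) in 5.75% and 2.91%, and the GC box (GGGCGG) in 47.1% and 51.1%. The CIC octamer (TGAATGAA, TGAATGGA, TCAATGAA or TCAATGGA) was in 4 windows, or 4.60%, and in 4.98% of all windows. These motifs were searched separately, and a stretch can match more than 1 of them.

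**Figure D5:**
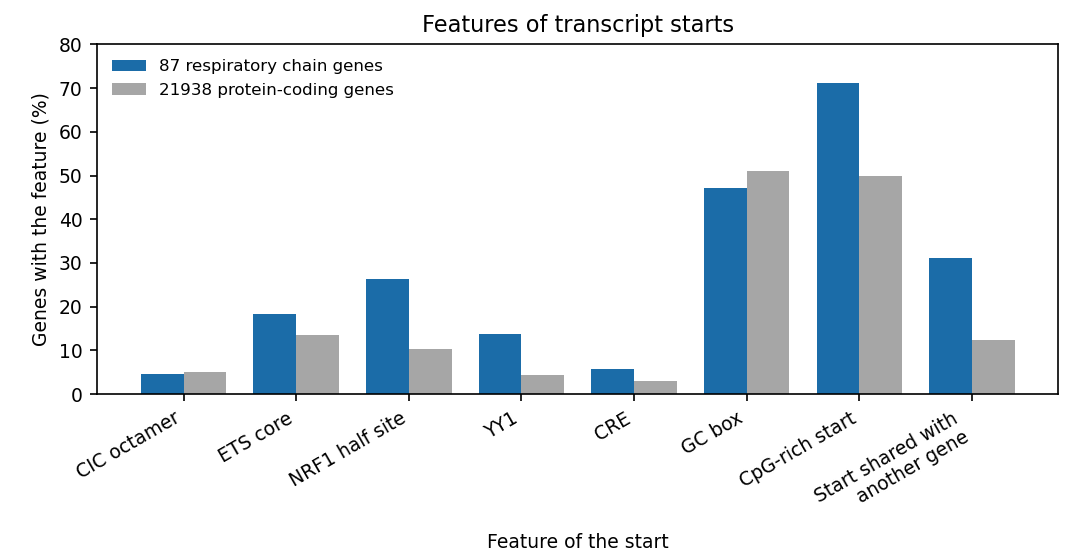
Share of genes (percent, axis from 0) whose transcript start holds each motif, is CpG-rich or is shared with another gene, for the 87 respiratory chain genes and all 21938 protein-coding genes. The NRF1 motif stands at 26.4% against 10.3%, and the CIC octamer at 4.60% against 4.98%.

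The 4 genes with a CIC octamer near the start were Ndufa5, Ndufc1, Uqcrb and Cox8a. In Cox8a the octamer TGAATGGA, capitalised in the window above, lay 215 bp upstream, and its centre lay 2 bp from the 154Q summit. The WT peak interval of Cox8a also covers it, with the WT summit 66 bp away. In Ndufa5 the octamer lay 347 bp from the WT summit and outside the WT peak. Ndufc1 and Uqcrb had no summit in any list, and their nearest WT summits lay 123 and 203 kb away.

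At the summits themselves, the windows of 50 bases on either side of the strongest summit of each gene held an octamer in 0 of 20 WT genes, 1 of 11 154Q genes (Cox8a) and 0 of 3 154Q[V591A;S602D] genes. Over all promoter genes of these lists the shares were 1.59%, 3.83% and 2.75%. Read over the whole called interval, 1 of 20 WT genes held it, against 4.15% of all promoter genes. The ETS core was in 3 of 20 WT windows beside 6.64% over all promoter genes, the NRF1 motif in 4 of 20 beside 7.92%, and the GC box in 6 of 20 beside 40.01%. In 154Q the ETS core was in 0 of 11 windows beside 7.10%, the NRF1 motif in 1 of 11 beside 7.48%, and the GC box in 1 of 11 beside 39.9%. The 154Q summits of Cox6a1 tie in −log10 q. The one counted, 186 bp upstream, holds no NRF1 motif and no GC box, whereas the other, 120 bp upstream, holds both. In 154Q[V591A;S602D] they were in 1, 0 and 1 of 3, beside 6.31%, 7.77% and 41.7%. The Uqcrq windows held a GC box, and those of Ndufv1, Atp5d and Atp5g1 held none of the searched motifs.

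Related gene groups were read by the same rule. Of 47 assembly factors, which build the complexes, 10 had a WT summit (21.3%), 3 a 154Q summit (6.38%) and 2 a 154Q[V591A;S602D] summit (4.26%). All genes stand at 11.7%, 4.88% and 2.82%, and the intervals of the latter 2 shares, 2.19% to 17.2% and 1.17% to 14.2%, span them. Both in all 3 lists were Coa7, an assembly factor of complex IV, with −log10 q of 7.24, 7.03 and 6.52, and Cox20, with 5.69, 2.00 and 1.37. Bcs1l, which inserts the iron-sulfur protein into complex III, had the highest WT value of this group at 10.7 and shares its start with Zfp142. Of 14 tricarboxylic acid cycle enzymes, Mdh2 was in all 3 lists (15.8, 1.86 and 2.47), Idh3g in WT and Ogdh in 154Q. The 2 of 14 in WT, or 14.3%, stand beside 11.7% of all genes.

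Mitochondrial ribosomal proteins, which translate the subunits encoded by mitochondrial DNA, had WT summits at 18 of 78 genes (23.1%), 154Q summits at 8 (10.3%) and 154Q[V591A;S602D] summits at 7 (8.97%). Cytosolic ribosomal proteins had them at 27 of 83 (32.5%), 11 (13.3%) and 4 (4.82%). The respiratory chain shares of 23.0% and 12.6% in WT and 154Q lie within the intervals of the mitochondrial ribosomal proteins, which run from 15.1% to 33.6% and from 5.29% to 18.95%. In 154Q[V591A;S602D] the respiratory chain share of 3.45% lies below the interval of these proteins, 4.42% to 17.4%, while its own interval of 1.18% to 9.65% holds their share of 8.97%. Both ribosomal groups thus also lay above the 11.7% and 4.88% of all genes. Of the 15 regulators, 5 had a WT summit, namely Esrra, Gabpa, Pprc1, Tfb1m and Tfb2m, and 1 a summit in the other 2 lists (Esrra). These are 33.3%, 6.67% and 6.67%, beside 11.7%, 4.88% and 2.82% of all genes. Nrf1, Yy1, Sp1, Tfam and Ppargc1a had none.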

How the data were processed

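Per the labels and methods, the authors trimmed reads (Trimmomatic 0.36), aligned them to mm10 (GRCm38) with Bowtie2 2.3.4.1, kept CIC fragments under 120 bp (SAMtools 1.10), removed blacklisted regions (bedtools 2.29.1), merged the replicates of a genotype and called peaks with MACS3 at a q-value of 0.05 against merged CIC KO. The versions are those of the submitters' processing notes. For WT and 154Q[V591A;S602D] the deposited columns are the fold enrichment (a ratio), the −log10 p-value, the −log10 q-value and the summit. The deposited 154Q list gives summits and −log10 q, and its name says that repeats were removed. Merging hides the spread between mice and weights each mouse by its reads.

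Summits on chromosomes 1 to 19, X and Y were assigned to GENCODE M21 basic transcript starts within 1 kb (Python 3.11.15, pandas 2.3.3, NumPy 2.4.6, SciPy 1.17.1, matplotlib 3.10.9). Intervals are 95% Wilson intervals. Fragments and background at a summit were found by searching for the integer pileup that gives both the deposited fold and −log10 p under a Poisson model, and the background is the larger of local and genome-wide control, scaled by the caller. Assignment and recovery were tested on simulated data. Motif and sequence windows came from the GRCm38.p6 genome. Genes named are those in 2 or 3 lists, those in 154Q or 154Q[V591A;S602D], the 10 highest in WT, the tissue-restricted isoforms and those without a peak, and the other WT genes were added with their values known. The genes, lists and rules were chosen with earlier results of these data known. No test was made, because each genotype is 1 list. Alternatives were other distances, start definitions, a q under 0.001, a repeat filter on all lists, 1 summit per peak, equal list lengths, and sets without isoforms or with CpG-rich starts alone. No protein sequence was used here.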

Additional observations from a re-analysis of the deposited data

How the results depend on the processing

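Of 69 alternative values, 1 turned in direction, and the larger moves were these. With each list cut to 1100 summits, the respiratory chain genes with a peak numbered 7 in WT and 4 in 154Q, and the 154Q share stood 1.70 percentage points above all genes, not 7.77. The WT difference was then 4.62 points, not 11.2. At a q under 0.001 the 154Q genes numbered 6, and the differences were 3.80 points in 154Q and 1.99 in 154Q[V591A;S602D]. With starts taken from the gene record alone, 2 genes were in all 3 lists, Ndufv1 and Atp5d, the latter through summits beside Cbarp, the 154Q[V591A;S602D] difference was 2.03 points, and the median 154Q position was −34 bp, not −99. Atp5d then had a −log10 q of 34.6 in 154Q, above the 15.7 of Cox8a. Without isoforms and Atp5s the 154Q[V591A;S602D] difference was 1.03 points. With CpG-rich starts alone, the 154Q[V591A;S602D] share lay below that of all genes, at −1.75 points and not 0.631, while the WT difference was 6.86 and the 154Q difference 9.20. The interval of the WT share, 17.9% to 39.6%, then spanned the background of 20.6%. The causes were not tested beyond the construction of each alternative. Over the whole lists, and not only at respiratory chain genes, weak summits rest on as few as 19 fragments in WT and 18 in 154Q[V591A;S602D]. This limits what the lists can show. The lists allowed no paired analysis because replicates were merged before peak calling, and for the same reason no replicate could be left out.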
